A study of Mus musculus with 6 samples.

Results

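The interferon-stimulated genes are a set of 44 genes taken by name from the 23420 genes of the table, and all 44 are listed there. They hold the transcription factors that carry an interferon signal to the nucleus, sensors of viral nucleic acid, and antiviral effectors. They were read in eosinophils of wild-type (WT) mice, grown from bone marrow with stem cell factor and FLT3 ligand at 100 ng/mL each until day 4 and with IL-5 at 20 ng/mL from then on. On day 14, after removal of dead cells, cells of 3 libraries received IL-33, an alarmin cytokine, at 2.5 ng/mL for 3 hours, and cells of 3 libraries received phosphate-buffered saline (PBS) instead. Whether replicate libraries stem from different mice or culture dishes is not in the labels. The p-values therefore describe the spread among 6 libraries, and that spread may be technical.

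Type I interferons bind the receptor made of Ifnar1 and Ifnar2, and the kinases Jak1 and Tyk2 then phosphorylate STAT proteins. These join IRF9 to form the complex ISGF3, which binds the interferon-stimulated response element (ISRE) in the promoters of interferon-stimulated genes. Interferon gamma uses a different receptor, and STAT dimers then bind the gamma-activated site (GAS). Many of these genes are kept at a low level by interferon made in small amounts, and they rise together when cells are exposed to interferon. IL-33 signals through the receptor ST2 and the adaptor MyD88 to NF-kB.

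The ISRE, searched on both strands as 2 copies of GAAA with any 2 bases between them, lay in the promoter window of 22 of the 35 member genes that have one (62.9%), against 1079 of 27025 genes overall (3.99%). A window runs from 250 bases before to 50 after a gene's start, in RefSeq's annotation of GRCm38.p6. The sequences that follow are stretches around these matches, with every ISRE match in capitals. Each lies upstream of a RefSeq start and is read in the direction of its own gene. The GENCODE coordinates used below can differ: there the stretches of Gbp2 and Ifitm2 lie partly, and that of Irgm2 wholly, inside the gene. On the opposite strand each copy reads TTTC, and a match is a description of letters, not a shown binding site. Isg15 and Ifit1 stand for members with hardly any reads here. Bst2, Gbp2 and Ifitm2 are members that were higher after IL-33, and Gbp7 and Stat2 are members that were lower. Irgm2 and Igtp are paralogs whose stretches shown here are near-identical, and neither gene passed the test between IL-33 and PBS.
Isg15, chr4:156200860-156200911, minus strand: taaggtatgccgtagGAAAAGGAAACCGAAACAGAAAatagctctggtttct
Ifit1, chr19:34640770-34640828, plus strand: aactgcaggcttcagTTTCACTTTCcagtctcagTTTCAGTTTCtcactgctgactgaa
Bst2, chr8:71537572-71537617, minus strand: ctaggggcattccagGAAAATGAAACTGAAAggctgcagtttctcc
Gbp2, chr3:142620589-142620628, plus strand: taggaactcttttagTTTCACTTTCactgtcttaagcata
Ifitm2, chr7:140955983-140956022, minus strand: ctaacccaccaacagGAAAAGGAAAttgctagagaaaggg
Gbp7, chr3:142530268-142530307, plus strand: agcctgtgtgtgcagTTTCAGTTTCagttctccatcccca
Stat2, chr10:128270261-128270300, plus strand: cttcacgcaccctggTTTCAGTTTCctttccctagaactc
Irgm2, chr11:58214898-58214937, plus strand: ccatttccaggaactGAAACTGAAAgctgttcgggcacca
Igtp, chr11:58199507-58199546, plus strand: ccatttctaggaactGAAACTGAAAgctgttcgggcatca

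The values are normalized counts, reads of a gene divided by one factor per library, and the libraries held 8218303 to 10785521 reads that could be recovered from them. The precursor of ribosomal RNA, Rn45s, held 24.3%, 59.6% and 54.8% of reads in IL-33 libraries 1, 2 and 3, against 13.7% to 24.8% in the PBS libraries. This left 4229504 to 7129435 reads for all other genes, with the lowest numbers in IL-33 replicates 2 and 3. The label was checked on 11 eosinophil genes, all of them detected. Prg2, which encodes the granule's major basic protein, had 11033 to 20834 normalized counts after IL-33 and 28512 to 41054 with PBS. Of the 11 eosinophil genes 9 were lower and 1 was higher after IL-33 (limma adjusted p under 0.05). This is 90.9% of the list, against 31.9% of all genes tested. In bulk samples, fewer cells of a type and less RNA per cell cannot be told apart.

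Genes of the set rose and fell after IL-33, and 19 of the 28 whose level could be tested had a log2 fold change below 0. Among all 10544 genes tested, 5441 lay below 0. Of the 44 genes, 28 reached a normalized count of 10 in at least 3 libraries and were tested with limma on log2(normalized count + 1), and 16 did not. With an adjusted p under 0.05 as the threshold, 6 were higher (Gbp2, Ifitm2, Bst2, Irf7, Irf9 and Ifi35), 4 were lower (Gbp7, Dtx3l, Ddx58 and Stat2) and 18 were not called. The 10 called genes are 35.7% of those tested, against 31.9% of all 10544 genes tested, 17.4% being higher and 14.4% lower. The share of called genes is thus near that of the whole table. Gbp2, one of the higher genes, passed the filter only through the IL-33 libraries, so a positive difference was required for it to be tested. Of the 18 genes not called, 15 had a log2 fold change below 0, as had 3919 of the 7185 not called among all genes tested. The median log2 fold change over the 28 genes was −0.44, with a range of −2.06 to 2.31, and the median of all genes tested was −0.03. Set against the PBS mean, the median difference of the 28 genes was −0.37, −0.38 and −0.57 on the log2 scale in IL-33 replicates 1, 2 and 3, and that of all genes tested lay between −0.03 and 0.01. Groups were free of overlap for 20 of the 28 genes, 13 of them lower and 7 higher, which is more genes than were called. Of all genes tested, 50.2% did not overlap, 24.7% lower and 25.5% higher.

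**Figure D1:**
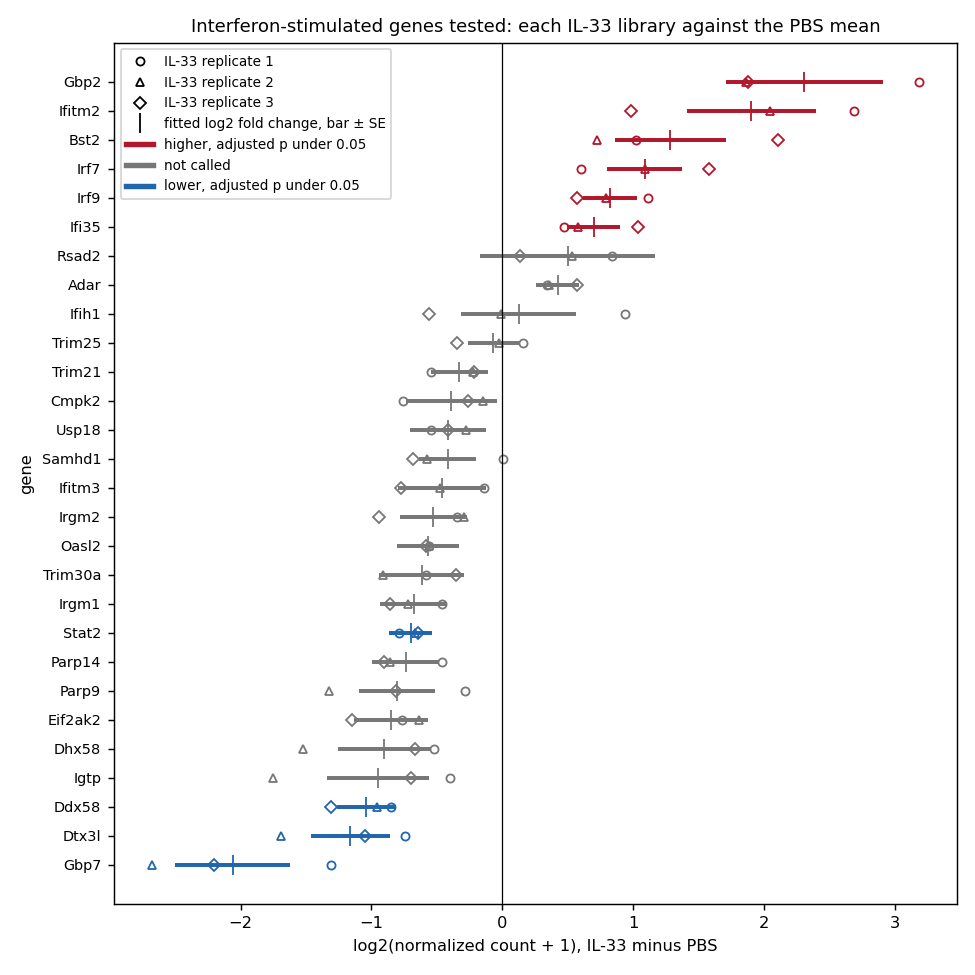
Difference in log2(normalized count + 1), IL-33 minus PBS, for the 28 interferon-stimulated genes tested. Circles, triangles and diamonds are IL-33 replicates 1, 2 and 3 against the PBS mean, the tick with its bar is the fitted log2 fold change ± 1 SE, and red, gray and blue stand for higher, not called and lower. Gbp2 at 2.31 and Gbp7 at −2.06 are the extremes, and 19 of the 28 fitted values lie below 0. Gbp2 passed the filter on low values only through the IL-33 libraries.

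Single libraries and the scaling changed how many genes were called, in the set and in the whole table. Leaving out 1 library gave 0 to 6 higher and 0 to 11 lower genes of the set, from 6 and 11 when IL-33 replicate 1 was omitted to 0 and 0 when PBS replicate 3 was omitted (limma, with 10 genes then under an unadjusted p of 0.05). Omitting IL-33 replicate 2 left 0 higher and 2 lower, and omitting IL-33 replicate 3 left 3 and 4. Omitting PBS replicate 1 left 0 and 2, and omitting PBS replicate 2 left 0 and 1. Without IL-33 replicate 1, 2 or 3, 56.4%, 15.7% and 25.1% of all genes tested were called, against 65.4%, 7.41% and 25.9% of the set. Without PBS replicate 1, 2 or 3, the shares were 16.5%, 11.1% and 9.82% of all genes, against 7.41%, 3.57% and 0% of the set. Fewer or more calls in the set thus came with fewer or more calls in the whole table. The median of the set stayed between −0.62 and −0.36 in these fits. With IL-33 replicate 1 alone against PBS, no spread among IL-33 libraries is left. The log2 fold change was then 2.68 for Ifitm2, 1.11 for Irf9, 1.02 for Bst2, 0.60 for Irf7 and 0.47 for Ifi35. It was −0.85 for Ddx58, −0.75 for Dtx3l, −1.31 for Gbp7 and −0.79 for Stat2. Scaling each library to an equal total moved the median of all genes to −1.06, and without Rn45s to −0.45. The set then had 0 higher and 19 lower genes (median −1.45), and without Rn45s 2 higher and 15 lower (median −0.85). Called genes were 67.9% and 60.7% of the set, against 52.6% and 42.9% of all genes tested. Relative to the median of all genes, 9 members lay above it and 19 below it under both of these scalings, and all 10 called genes kept their side.

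**Figure D2:**
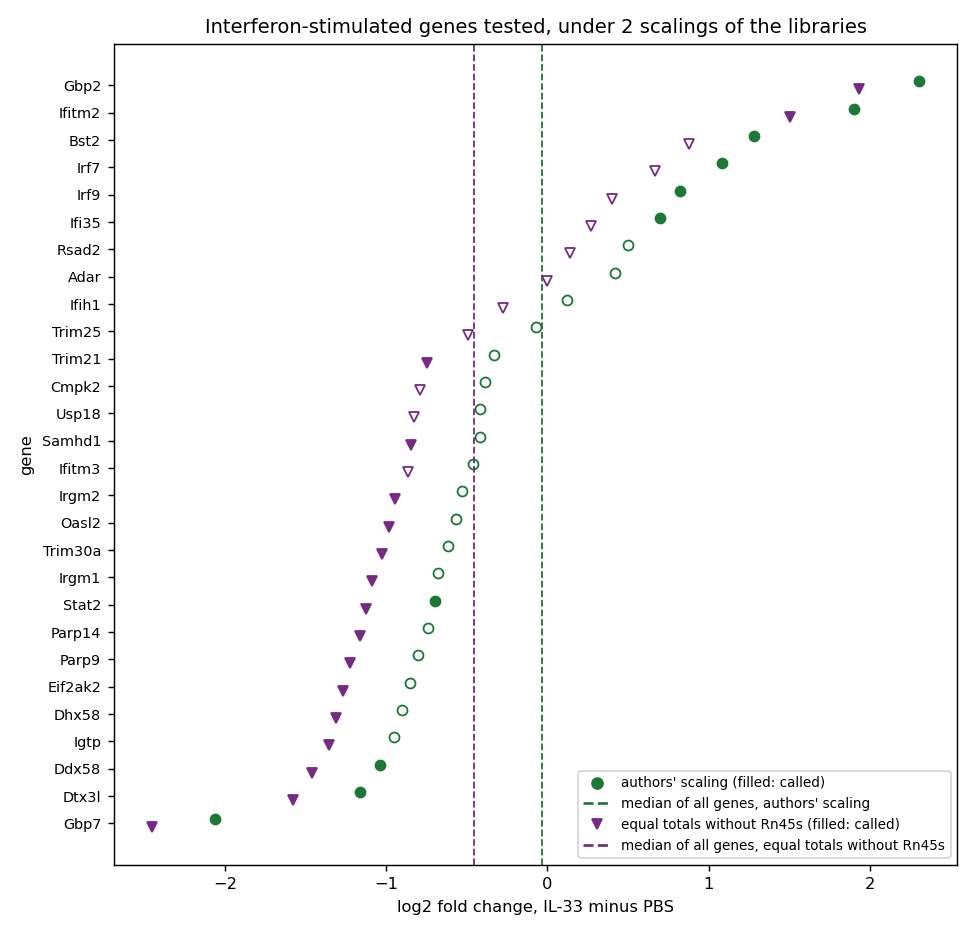
Log2 fold change (IL-33 minus PBS) of the 28 interferon-stimulated genes tested, as scaled by the authors (green circles) and with equal totals without Rn45s (purple triangles), filled where called. Dashed lines are the medians of all genes tested, −0.03 and −0.45, and under both scalings 9 of the genes lie above their line and 19 below it.

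The 3 genes of the set for transcription factors of the pathway all passed the test, in opposite directions. Of all genes tested, 31.9% passed. Irf9, the DNA-binding subunit of ISGF3 (chromosome 14, 55603571 to 55610030, plus strand), had normalized counts of 245, 195 and 168 after IL-33 and 117, 113 and 108 with PBS. All 3 IL-33 values lay above all PBS values. The means were 203 ± 38.9 after IL-33 and 113 ± 4.47 with PBS (SD, n = 3 each), a log2 fold change of 0.82 ± 0.20 (SE, limma adjusted p = 0.0191). Irf7, the factor that amplifies interferon-alpha transcription (chromosome 7, 141262706 to 141266481, minus strand), had 71.0, 100.0 and 141 after IL-33, against 51.3, 49.5 and 39.8 with PBS. The groups were separate, and replicate 1 was the lowest of the IL-33 values, close to the PBS range. Irf7 averaged 104 ± 35.0 after IL-33 and 46.9 ± 6.14 with PBS, with a log2 fold change of 1.09 ± 0.29 (SE, limma adjusted p = 0.0246).

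Stat2, the transactivating subunit of ISGF3 (chromosome 10, 128270559 to 128292849, plus strand), had 201, 219.9 and 224 after IL-33 and 328, 362 and 359 with PBS. All IL-33 values were lower, and both groups were tight. Its means were 215 ± 11.9 after IL-33 and 349.8 ± 18.5 with PBS, a log2 fold change of −0.70 ± 0.16 (SE, limma adjusted p = 0.0158). The summed level of Irf9, Irf7 and Stat2 was 515 to 532 after IL-33 and 497 to 525 with PBS, so that the sum overlaps although each gene is separate. Per kilobase of exon, Irf9 averaged 37.6 and Stat2 36.3 in the IL-33 libraries, while in the PBS libraries Irf9 averaged 20.9 and Stat2 59.0. These calls were lost in 4 of the 6 fits with 1 library omitted. Without IL-33 replicate 2 or PBS replicate 1, 2 or 3, the log2 fold change of Irf9 was 0.84, 0.85, 0.82 and 0.79, that of Irf7 1.09, 1.15, 1.13 and 0.98, and that of Stat2 −0.72, −0.74, −0.67 and −0.68. None of these passed the threshold (limma adjusted p of 0.0501 to 0.111). With IL-33 replicate 1 alone, Irf7 had a log2 fold change of 0.60 and was not called. Scaled to equal totals, the log2 fold change of Irf9 was −0.21 and that of Irf7 0.06, and without Rn45s 0.40 and 0.67, none of them called.

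**Figure D3:**
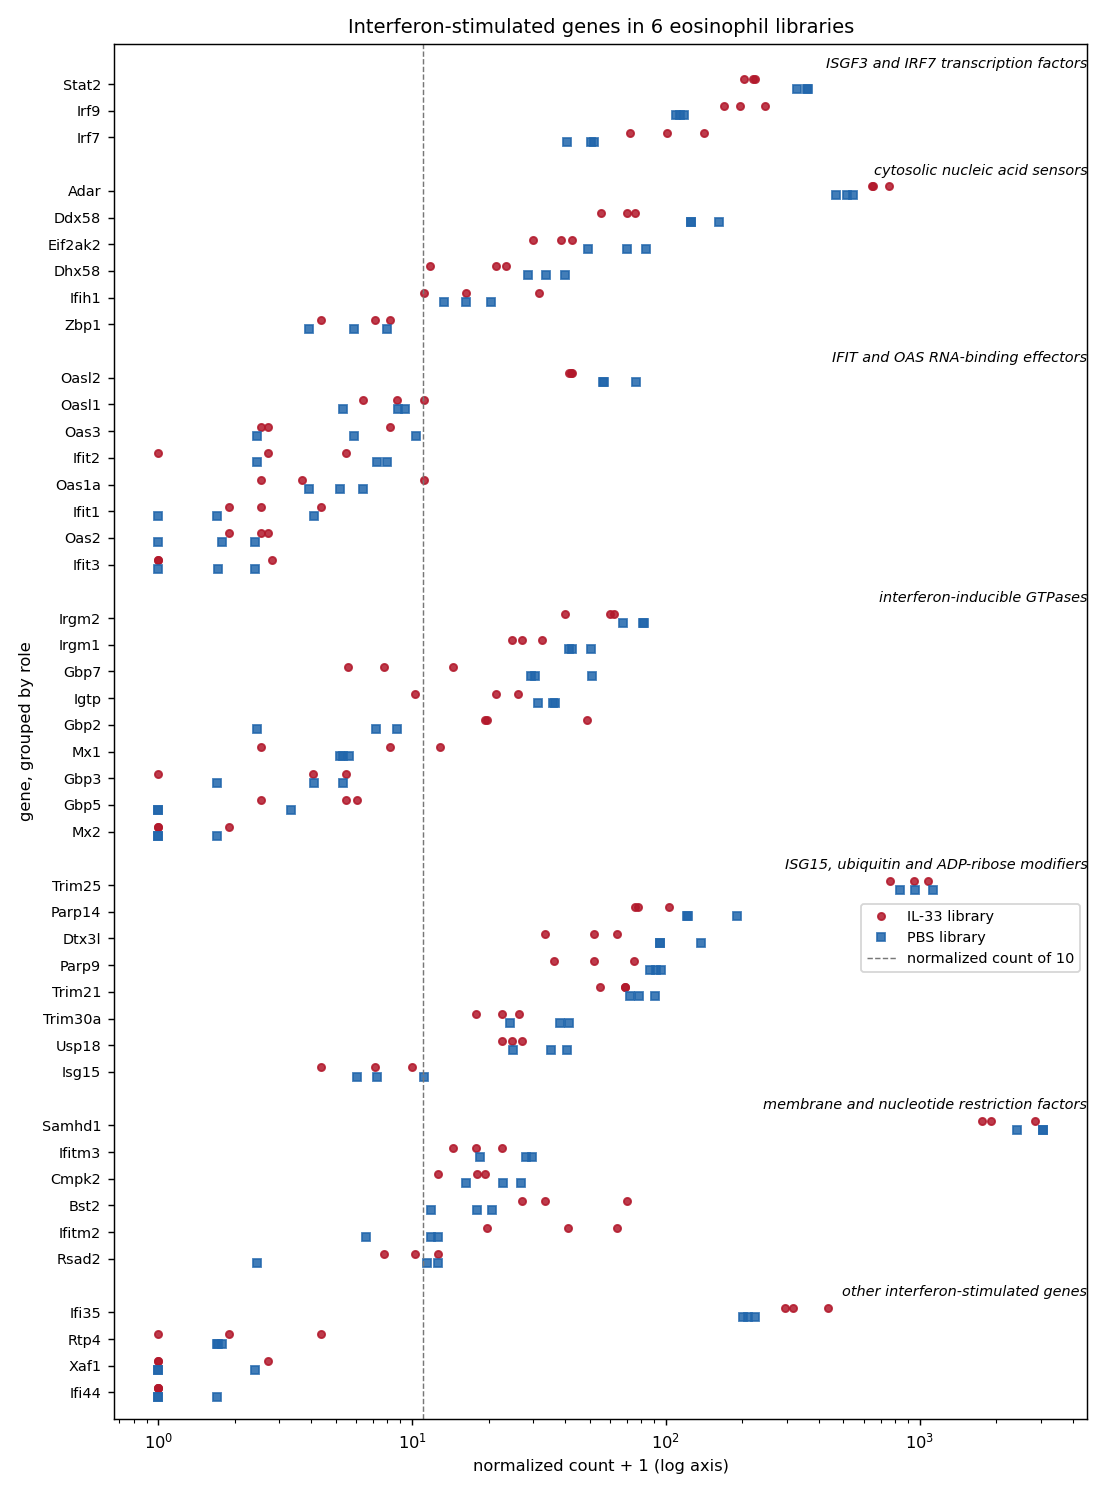
Normalized count + 1 on a log axis of all 44 interferon-stimulated genes, grouped by role, with red circles for the 3 IL-33 libraries above blue squares for the 3 PBS libraries and a dashed line at a normalized count of 10. Samhd1 and Trim25 lie highest, and 12 of the 16 genes not tested stay left of the line in every library.

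Cytosolic sensors and RNA-handling enzymes gave 1 lower and 0 higher genes among the 5 tested of 6. The called share was 20%, against 31.9% of all genes tested. Ddx58, which encodes the RNA sensor RIG-I (chromosome 4, 40203773 to 40239828, minus strand), had 74.6, 69.2 and 54.2 after IL-33, against 124, 124 and 161 with PBS. The lowest PBS value was above the highest IL-33 value. It averaged 66.0 ± 10.6 after IL-33 and 137 ± 21.4 with PBS (SD, n = 3 each), a log2 fold change of −1.04 ± 0.22 (SE, limma adjusted p = 0.0118). The call was lost without PBS replicate 2 (−1.10, limma adjusted p = 0.0504) and without PBS replicate 3 (−0.92, limma adjusted p = 0.076). Dhx58, which encodes LGP2, a regulator of RIG-I and MDA5, had 10.8 to 22.5 after IL-33 and 27.6 to 39.1 with PBS, at a log2 fold change of −0.90 (limma adjusted p = 0.0808). Eif2ak2, which encodes the double-stranded RNA-activated kinase PKR, had 28.8 to 41.5 after IL-33 and 48.1 to 82.5 with PBS (−0.85, limma adjusted p = 0.0517). Neither overlapped between the groups, and neither passed the threshold in the main fit. Eif2ak2 was called lower in 7 of 18 alternative runs. Among them were TMM scaling (−0.87, limma adjusted p = 0.049), edgeR (−0.89, edgeR adjusted p = 0.0441) and DESeq2 (−0.87, DESeq2 adjusted p = 0.0359). Dhx58 was called lower in 3 of 18, under both scalings to equal totals and without IL-33 replicate 1 (−1.09, limma adjusted p = 0.0228). Ifih1, which encodes the RNA sensor MDA5, had 10.2 to 30.6 after IL-33 and 12.4 to 19.4 with PBS, and the groups overlapped (0.12, limma adjusted p = 0.845).

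Adar, the adenosine deaminase that edits double-stranded RNA and so hides cellular RNA from MDA5, lay on the other side. It had the largest mean of the group, with 645, 652 and 754 after IL-33, against 517, 469 and 544 with PBS. The groups did not overlap, but the log2 fold change of 0.42 (SE 0.16) did not pass (limma adjusted p = 0.076), and it was −0.62 after scaling to equal totals. Adar was called higher with DESeq2 (0.43, DESeq2 adjusted p = 0.0478) and without IL-33 replicate 1 (0.46, limma adjusted p = 0.0196). Of its exonic bases, 16.8% overlap another annotated gene, on the opposite strand. Zbp1, a sensor of Z-form nucleic acid, had at most 7.19 in any library and was not tested.

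Of the 8 genes for IFIT and OAS effectors, which bind viral RNA or signal its presence to RNase L, 7 had normalized counts of 10.2 or less in every library. Only Oasl2 was tested, with 41.4, 41.5 and 40.7 after IL-33 and 55.9, 55.3 and 75.5 with PBS. Its groups were separate, yet the log2 fold change of −0.57 (SE 0.23) was not called (limma adjusted p = 0.0942). Summed over the 8 genes, the level was 55.4 to 69.5 after IL-33 and 66.2 to 103 with PBS, which overlap.

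The 16 untested genes of the whole set include those that mark an interferon response in most cells: Isg15, Ifit1, Ifit2, Ifit3, Ifi44, Mx1, Mx2, Oas1a, Oas2, Oas3, Oasl1, Gbp3, Gbp5, Xaf1, Zbp1 and Rtp4. Summed over libraries they had 119 reads after IL-33 and 185 with PBS. By library this was 64, 21 and 34 reads after IL-33 and 79, 39 and 67 reads with PBS. Scaled to 1000000 reads outside Rn45s, it came to 8.98, 4.82 and 8.04 after IL-33, against 11.98, 5.66 and 9.45 with PBS. No IL-33 library stood above the PBS range. Isg15, which encodes a ubiquitin-like protein, had 8.99, 6.15 and 3.39 normalized counts after IL-33, against 10.1, 5.09 and 6.29 with PBS. Ifit1, whose protein binds RNA lacking cap methylation, had 0.899, 1.54 and 3.39 after IL-33 and 3.11, 0 and 0.699 with PBS. These numbers rest on a few reads per library, so small differences in single genes were not detectable at this depth. Of the 16, 12 stayed below 10 in every library, and Ifi44 had the fewest reads, 0 after IL-33 and 1 with PBS.

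The interferon-inducible GTPases held both extremes of the set. Gbp2 (chromosome 3, 142620602 to 142638008, plus strand) had 47.7, 18.5 and 18.6 after IL-33 and 6.21, 1.46 and 7.69 with PBS. Its IL-33 values were all higher, with replicate 1 far above the other two. The means were 28.2 ± 16.8 after IL-33 and 5.12 ± 3.26 with PBS (SD, n = 3 each), a log2 fold change of 2.31 ± 0.60 (SE, limma adjusted p = 0.023). It rests on 76 reads after IL-33 and 21 with PBS and passed the filter on low values only through the IL-33 libraries, so a positive difference was required for it to be tested at all. Gbp7, which ends 70.5 kilobases before Gbp2 starts on the same strand (chromosome 3, 142530342 to 142550149), had 13.5, 4.61 and 6.78 after IL-33, against 29.5, 28.4 and 50.3 with PBS. Here all IL-33 values were lower. Gbp7 averaged 8.29 ± 4.63 after IL-33 and 36.1 ± 12.4 with PBS, with a log2 fold change of −2.06 ± 0.44 (SE, limma adjusted p = 0.0116). Gbp7 rests on 22 reads after IL-33 and 149 with PBS, and 11.3% of its exonic bases overlap another annotated gene on the same strand. Its call was lost without PBS replicate 3 alone (−1.80, limma adjusted p = 0.0726). That of Gbp2 was lost without PBS replicate 1 (2.52), 2 (1.74) or 3 (2.65), at limma adjusted p of 0.0505 to 0.0744, and after scaling to equal totals (1.40), and it was not tested without any IL-33 library. Guanylate-binding protein genes are near-identical copies of each other in places and may share reads, so the values of single members are uncertain.

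The immunity-related GTPases Irgm1, Irgm2 and Igtp were lower in the IL-33 libraries without overlap, and none was called. Irgm2, the one with the largest mean, had 59.3, 61.5 and 39.0 after IL-33 and 66.8, 80.0 and 81.1 with PBS (log2 fold change −0.53 ± 0.25, SE, limma adjusted p = 0.14). Igtp had 9.23 to 25.2 after IL-33 and 30.3 to 35.7 with PBS (−0.95, limma adjusted p = 0.0933). Irgm1 had 23.7 to 31.5 after IL-33 and 40.5 to 49.7 with PBS (−0.68, limma adjusted p = 0.0725). The annotated spans of Irgm2 and Igtp overlap on chromosome 11, and these paralogs may share reads, so their single values are uncertain.

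All 7 tested of the 8 genes that attach or remove ISG15, ubiquitin or ADP-ribose had a negative log2 fold change, and 1 was called. The called share was 14.3%, against 31.9% of all genes tested. A negative log2 fold change was found for 5441 of all 10544 genes tested. Dtx3l, a ubiquitin ligase that works as a pair with PARP9 (chromosome 16, 35926511 to 35939151, minus strand), had 62.9, 32.3 and 50.8 after IL-33, against 94.0, 93.9 and 136 with PBS. The highest IL-33 value was well below the lowest PBS value. Its means were 48.7 ± 15.4 after IL-33 and 108 ± 24.5 with PBS (SD, n = 3 each), a log2 fold change of −1.16 ± 0.30 (SE, limma adjusted p = 0.0225). The call was lost when IL-33 replicate 2 (−0.90) was omitted, or PBS replicate 1 (−1.25), 2 (−1.25) or 3 (−0.98), at limma adjusted p of 0.0588 to 0.113. Parp9, whose annotated span overlaps that of Dtx3l in part, had 35.4 to 73.7 after IL-33 and 85.4 to 94.3 with PBS (−0.81, limma adjusted p = 0.0627). Parp14, an ADP-ribosyltransferase encoded nearby, had 74.6 to 102 after IL-33 and 119.6 to 189 with PBS (−0.74, limma adjusted p = 0.055). All 3 neighbors were thus separate between the groups in the same direction, and only Dtx3l was called in the main fit. Parp14 was called lower with DESeq2 (−0.75, DESeq2 adjusted p = 0.0392). Parp9 (−1.07) and Parp14 (−0.88) were called lower without IL-33 replicate 1, and under both scalings to equal totals.

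Trim25, a ubiquitin ligase that acts on RIG-I, was among the most abundant genes of the set and was not called. It had 1077, 946 and 759 after IL-33 and 1128, 952 and 834 with PBS (log2 fold change −0.07 ± 0.20, SE, limma adjusted p = 0.797). The groups overlapped almost wholly. The ubiquitin ligase genes Trim21 and Trim30a and Usp18, which encodes the protease that removes ISG15 and blocks the interferon receptor, also missed the threshold (log2 fold changes −0.33, −0.62 and −0.41).

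Membrane and nucleotide restriction factors gave 2 higher and 0 lower genes of 6 tested, 33.3% called against 31.9% of all genes tested. Ifitm2, which hinders the fusion of virus and cell membranes (chromosome 7, 140954837 to 140955987, minus strand), had 62.9, 40.0 and 18.6 after IL-33 and 10.9, 11.6 and 5.59 with PBS. The groups were separate, and the IL-33 values spanned a wider range than the gap between the groups. It averaged 40.5 ± 22.2 after IL-33 and 9.37 ± 3.29 with PBS (SD, n = 3 each), a log2 fold change of 1.90 ± 0.49 (SE, limma adjusted p = 0.0226). Of its exonic bases, 40.9% overlap another annotated gene on the same strand, so that their reads may not be told apart. The call was lost when IL-33 replicate 2 (1.83) was omitted, or PBS replicate 1 (2.03), 2 (2.07) or 3 (1.60), at limma adjusted p of 0.0572 to 0.0979, and after scaling to equal totals (0.93). Its paralog Ifitm3, 53.6 kilobases away, had 13.6 to 21.6 after IL-33 and 17.5 to 28.7 with PBS and was not called (−0.46, limma adjusted p = 0.31).

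Bst2, which encodes tetherin, a protein that holds budding virions on the cell (chromosome 8, 71534255 to 71537456, minus strand), had 32.4, 26.1 and 69.5 after IL-33, against 17.1, 10.9 and 19.6 with PBS. IL-33 replicate 3 stood far above the other libraries. The means were 42.7 ± 23.4 after IL-33 and 15.9 ± 4.46 with PBS, a log2 fold change of 1.28 ± 0.42 (SE, limma adjusted p = 0.0486). The call was lost when IL-33 replicate 2 (1.56) or 3 (0.87) was omitted, PBS replicate 1 (1.35), 2 (1.05) or 3 (1.45), or when no filter on low values was applied, at limma adjusted p of 0.0572 to 0.167. It was also lost after scaling to equal totals (0.29, limma adjusted p = 0.622), to equal totals without Rn45s (0.88, limma adjusted p = 0.111), and with IL-33 replicate 1 alone (1.02). Samhd1, a hydrolase that depletes the deoxynucleotides viruses need, was the most abundant gene of the set, at 237 normalized counts per kilobase of exon in the IL-33 libraries and 311 with PBS. It had 2841, 1899 and 1761 normalized counts after IL-33 and 3058, 2424 and 3060.4 with PBS, which overlap (log2 fold change −0.42 ± 0.22, SE, limma adjusted p = 0.164). Rsad2, which encodes the antiviral protein viperin, had 6.78 to 11.7 after IL-33 and 1.46 to 11.6 with PBS and was not called (0.50). Cmpk2, a mitochondrial nucleotide kinase gene, had 11.7 to 18.5 after IL-33 and 15.3 to 25.9 with PBS and was not called either (−0.39).

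Ifi35, a partner of the protein NMI, was the remaining gene called. It lies on chromosome 11 (101448407 to 101458698, plus strand) and had 293, 315 and 434 after IL-33 and 209.7, 200.1 and 224 with PBS. The groups were separate, with the widest gap for IL-33 replicate 3. Its means were 347 ± 75.7 after IL-33 and 211 ± 11.8 with PBS (SD, n = 3 each), a log2 fold change of 0.70 ± 0.20 (SE, limma adjusted p = 0.0323). It was called when IL-33 replicate 1 was omitted, and not when the omitted library was IL-33 replicate 2 (0.75) or 3 (0.53), or else PBS replicate 1 (0.69), 2 (0.66) or 3 (0.74), at limma adjusted p of 0.0588 to 0.127. Its log2 fold change was −0.34 after scaling to equal totals and 0.27 without Rn45s, and it was called in neither, nor with IL-33 replicate 1 alone (0.47). Of its exonic bases, 16.8% overlap another gene, on the opposite strand.

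Promoter matches lay in genes that were higher and in genes that were lower. The ISRE was found in 3 of 6 windows of higher genes (Bst2, Gbp2 and Ifitm2), 3 of 4 windows of lower genes (Ddx58, Gbp7 and Stat2), 9 of 14 of genes not called and 7 of 11 of genes not tested. The windows of Irf7, Irf9 and Ifi35 held no such letters. The GAS, searched as TTC and GAA with any 3 bases between them, lay in 12 of the 35 windows (34.3%), against 9.55% of all genes. It was found in 2 of 6 windows of higher genes (Ifi35 and Bst2) and 1 of 4 of lower genes (Gbp7). Genes not called had it in 6 of 14 windows and genes not tested in 3 of 11. The NF-kB consensus lay in 7 of 35 windows (20%), against 9.55% of all genes. It was found in 2 of 6 windows of higher genes (Bst2 and Gbp2) and 0 of 4 of lower genes. Genes not called had it in 1 of 14 windows and genes not tested in 4 of 11. These motifs are short and can overlap each other, and the counts are a description.

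The genes for interferons themselves were close to absent. The 19 interferon ligand genes in the table had 3 reads after IL-33 and 18 with PBS, and 13 of them, Ifng included, had none in any library. Ifnb1 had 0 reads after IL-33 and 1 with PBS. None could be tested, and 0 reads allow up to 3 reads per library.

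Several genes for receptors and kinases that read an interferon signal were higher after IL-33. Of 8 receptor and transducer genes tested, 5 were higher and 0 lower, with a median log2 fold change of 1.13. This is 62.5% called, against 31.9% of all genes tested. The higher ones were Ifnar1, Ifngr2 (1.70), Il10rb (1.36), Tyk2 and Jak2 (1.11), the last of them named after its value was seen. Ifnar1, the type I receptor chain that binds Tyk2, had 1214, 1193 and 1391 after IL-33 and 598, 533 and 592 with PBS (1.14 ± 0.15, SE, limma adjusted p = 0.00196). Tyk2 had 2098, 2175 and 2620.2 after IL-33, against 732, 723 and 652 with PBS (1.70 ± 0.16, SE, limma adjusted p = 3.98e-04). The partner chain Ifnar2 had 453 to 533 after IL-33 and 421 to 459 with PBS and was not called (0.14, limma adjusted p = 0.508), nor was Ifngr1, the ligand-binding chain of the interferon gamma receptor (0.35, limma adjusted p = 0.302). Scaled to equal totals, this list had a median of 0.09, with 0 genes called in either direction, while 5 of its genes were higher when Rn45s was omitted from the totals.

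**Figure D4:**
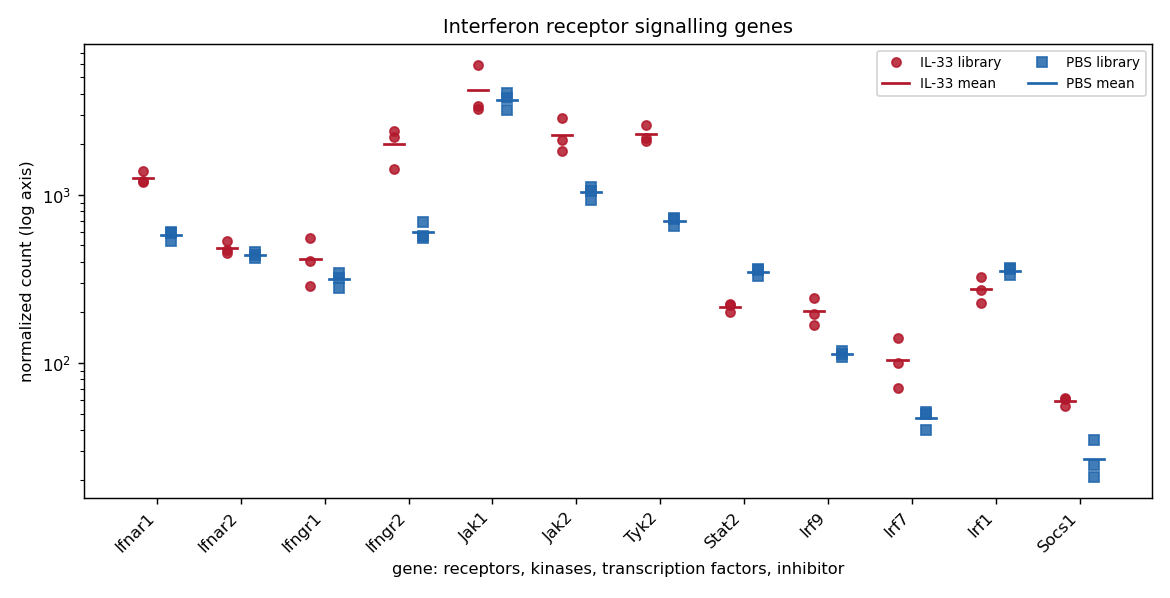
Normalized counts on a log axis of interferon receptor, kinase, transcription factor and inhibitor genes, with red circles for IL-33 libraries left of blue squares for PBS libraries and a short line at each mean (n = 3). Ifnar1, Ifngr2, Jak2, Tyk2, Irf9, Irf7 and Socs1 sit higher after IL-33 and Stat2 and Irf1 lower, each without overlap between the groups. Irf1 was not called.

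Genes that lead to interferon production gave 6 higher and 1 lower of 15 tested (median 0.49), 46.7% called against 31.9% of all genes. Tlr9, the endosomal DNA receptor, had 1482, 2302 and 2369 after IL-33 and 59.8, 58.9 and 41.2 with PBS (log2 fold change 5.23). Ikbke, a kinase that activates IRF3 and IRF7, had 384, 358 and 346 after IL-33, against 40.4, 45.8 and 39.8 with PBS (3.08 ± 0.18, SE, limma adjusted p = 6.19e-05). Tmem173, which encodes the adaptor STING, was the lower gene, with 44.1, 46.1 and 28.8 after IL-33 and 122, 116 and 103 with PBS (−1.52, limma adjusted p = 0.00448). The adaptor genes Myd88 (1.65) and Traf3 (1.34) were higher as well. Under equal totals the list had 2 higher and 4 lower genes (median −0.52), and it had 4 higher genes without PBS replicate 2 or 3 and 2 lower ones without IL-33 replicate 1. Of the other interferon regulatory factors, Irf5 had a log2 fold change of 0.75 (limma adjusted p = 0.0344) and Irf2 of −0.66 (limma adjusted p = 0.0385), and Irf1 (−0.37) and Irf8 (−0.63) were not called. The call of Irf5 was lost when IL-33 replicate 3 (0.77) was omitted, or PBS replicate 1 (0.87), 2 (0.65) or 3 (0.74), and that of Irf2 when IL-33 replicate 2 (−0.60) or 3 (−0.56) was omitted, or PBS replicate 1 (−0.70), 2 (−0.70) or 3 (−0.59). Irf2 was not called with the replicate block (limma adjusted p = 0.0674), with no mean-variance trend (limma adjusted p = 0.0561) or with IL-33 replicate 1 alone (−0.33). Irf5 had a log2 fold change of −0.28 after scaling to equal totals and 0.33 without Rn45s, and was not called then, nor with quantile normalization or no mean-variance trend.

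Genes that restrain interferon signalling gave 8 higher and 3 lower of 18 tested (median 0.34), 61.1% called against 31.9% of all genes. Socs1, which blocks the JAK kinases, had 62.0, 55.4 and 61.0 after IL-33 and 24.9, 34.9 and 21.0 with PBS (log2 fold change 1.14 ± 0.27, SE, limma adjusted p = 0.0163), and was not called without PBS replicate 1 (1.10) or 3 (0.99), nor after scaling to equal totals (0.13) or to equal totals without Rn45s (0.73). Tnfaip3 (3.81), Tnip1 (2.35), Ptpn1 (1.86) and Socs3 (1.40) were higher, and Rnf125, a ubiquitin ligase that targets RIG-I, was lower (−3.27). Pias3, an inhibitor of STAT proteins, had a log2 fold change of −0.55 and lost its call with no filter on low values, with quantile normalization, with the replicate number as a block (limma adjusted p = 0.0965) and in all fits with 1 library omitted except that without IL-33 replicate 1 (−0.59 to −0.52). Irf2, which competes with activating factors, is the other lower gene of this list. Usp18, the restraint that belongs to the set, had 21.6 to 26.1 after IL-33 and 24.0 to 39.8 with PBS. The list had 3 higher and 6 lower genes after scaling to equal totals (median −0.67), 5 higher without PBS replicate 3, and 1 lower gene with the replicate block, or without IL-33 replicate 2 or 3 or any 1 PBS library.

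Interferon-stimulated genes outside the set were split as well. Of 36 tested among 57, 6 were higher and 7 lower, with a median log2 fold change of 0.06. The called genes are 36.1% of those tested, near the 31.9% of all genes tested. Ube2l6, the enzyme that conjugates ISG15, had 66.5, 93.8 and 115 after IL-33 and 10.9, 4.37 and 8.39 with PBS (3.43 ± 0.38, SE, limma adjusted p = 8.14e-04), while its substrate gene Isg15 was below the filter. Tor3a (2.22), Helz2 (1.34) and Parp10 (1.00) were higher, and Ddx60 (−2.54), Sp100 (−1.55), Trim12c (−1.498) and Pnpt1 (−1.31) were lower. Under equal totals 2 genes of this list rose and 18 fell, and leaving out 1 library gave 3 to 9 higher and 1 to 11 lower. Without IL-33 replicate 2 or PBS replicate 1, 2 or 3, Parp10 was not called (0.92, 0.98, 1.06 and 0.97), nor under equal totals (−0.035) or equal totals without Rn45s (0.58). Sp100 was not called without PBS replicate 2 (−1.44) or 3 (−1.49), Trim12c not without PBS replicate 3 (−1.38), and Pnpt1 not without PBS replicate 1 (−1.31), 2 (−1.29) or 3 (−1.33).

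Targets of interferon gamma gave 7 higher and 1 lower of 18 tested (median 0.53), 44.4% called against 31.9% of all genes. Cxcl10, a chemokine that attracts T cells, had 53.0, 41.5 and 25.4 after IL-33, against 1.55, 3.64 and 2.80 with PBS (log2 fold change 3.47 ± 0.43, SE, limma adjusted p = 0.00141), and it passed the filter only through the IL-33 libraries. Icam1, an adhesion molecule (3.66), Tapbp, which loads peptides on MHC class I (1.96), and Psme2, a proteasome activator subunit (1.77), were higher. Psmb9, an immunoproteasome subunit, was the lower gene of this list (−1.52), its call lost when PBS replicate 3 was omitted (−1.41, limma adjusted p = 0.0524). Under equal totals the list had 3 higher and 5 lower genes, and leaving out 1 library gave 5 to 9 higher and 0 to 3 lower ones, with 3 when IL-33 replicate 1 was omitted and 0 when PBS replicate 3 was.

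Markers of other cells that such a culture can hold were summed in the same libraries. The macrophage and monocyte list summed to 4617 to 5259 after IL-33 and 2305 to 2572 with PBS, mostly Csf1r, with Marco at 0 everywhere and 1 of 6 tested genes higher and 1 lower. The conventional dendritic cell list summed to 660 to 973 after IL-33 and 345 to 420 with PBS, with Itgax and Batf3 higher and the other genes below the filter. The list for plasmacytoid dendritic cells, which carry high Irf7 and Bst2, itself holds Bst2, its only called gene of 3 tested. It summed to 1134 to 2393 after IL-33 and 1042 to 1226 with PBS, mostly Runx2, with Klk1 at 0 everywhere and Siglech at 1.55 or less. Neutrophil genes summed to 2390 to 3139 after IL-33 and 2993 to 3616 with PBS, mostly Ngp and Ltf. Mast cell and basophil genes summed to 429 to 729 after IL-33 and 701 to 797 with PBS, with Mcpt4 at 0 everywhere. Lymphocyte genes summed to 37.3 to 67.4 after IL-33 and 71.3 to 86.2 with PBS, with Ncr1 at 0 everywhere. The part of these cells in the values of the interferon-stimulated genes was not tested.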

How the data were processed

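RNA of 3 IL-33 and 3 PBS libraries was depleted of ribosomal RNA and sequenced from a directional kit, per the labels' protocols. The table deposited by the authors gives a signal per gene and library, its normalized count. HISAT2, HTSeq and DESeq2 with genome build mm10 are named in the submitters' processing notes, with annotation, versions and strand setting not given in the sources used here. Values were whole multiples of 1 step per library, so that reads were recovered, 100% of them whole within 0.1. Reads of overlapping genes, and of near-identical paralogs, may not be told apart. No molecular identifiers are mentioned, so reads are not independent molecules.

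The main two-sided test, IL-33 minus PBS, used lmFit and eBayes with trend from limma 3.58.1 (R 4.3.3), a pseudocount of 1 before the log2 step and genes at 10 or more in at least 3 libraries, with Benjamini-Hochberg adjustment over all 10544 genes tested and a threshold of 0.05. Such fold changes understate those of low genes. Coordinates come from GENCODE vM21 of GRCm38 (mm10), in which 23011 genes were matched by symbol, 1274 of them through an older one. Levels per kilobase use its exonic length. Promoter windows come from RefSeq GRCm38.p6, and 9 members have none. The edgeR 4.0.16 and DESeq2 1.42.0 tests on recovered reads were alternatives, as were other pseudocounts, filters, scalings, a replicate block and each library left out.

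The members, the gene lists, the tests and the rule for naming genes were chosen with earlier results of these data known. The rule gives every called member, the genes Irf9, Stat2 and Irf7 and the most abundant uncalled member of each role per library, and up to 4 called genes per direction of each other list, with Ifnb1, Ifng, Ifnar1, Ifnar2, Ifngr1, Irf1, Irf8, Socs1, Tlr9 and Cxcl10 always given. A gene of the fixed lists is not reported here. The comparison of IL-33 replicate 1 alone was added after seeing the data, because Rn45s took a larger share of the other IL-33 libraries.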

Additional observations from a re-analysis of the deposited data

How the results depend on the processing

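The set's 6 higher and 4 lower genes were also obtained with pseudocounts of 0.5 and 5, and counts stayed within 1.5 times of these with TMM scaling, quantile normalization, no mean-variance trend, edgeR (6 and 5) and DESeq2 (7 and 6). With no filter the median of all 44 genes was −0.23 and that of all 16669 genes then tested was −0.13. The set's median thus lay −0.11 from that of all genes, against −0.41 in the main fit. With a filter at 50 the set had 3 higher and 3 lower genes of 14 tested, 42.9% called against 36.2% of all genes. Scaled to equal totals, all genes gave 264 higher and 5287 lower, and the set 0 and 19 (median −1.45); without Rn45s, all genes gave 951 and 3570, and the set 2 and 15 (median −0.85). Higher genes made up 4.76% and 21.0% of all calls under these scalings, against 54.7% as scaled by the authors. Leaving out 1 library gave 695 to 2910 higher and 318 to 2950 lower of all genes, 0 to 6 and 0 to 11 in the set, and a set median of −0.62 to −0.36. With IL-33 replicate 1 alone the median of the set was −0.40 and that of all genes tested was −0.0024. The cause of these moves was not tested.

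Signs turned under equal totals for Ifi35 (−0.34), Ifih1 (−0.84), Rsad2 (−0.38), Irf9 (−0.21), Adar (−0.62), Irf5 (−0.28), Parp10 (−0.035), Ifnar2 (−0.90) and Ifngr1 (−0.69), and without Rn45s for Ifih1 (−0.27), Adar (−0.0032), Ifnar2 (−0.28) and Ifngr1 (−0.072). They also turned for Ifnar2 with quantile normalization (−0.052), Ifih1 without IL-33 replicate 1 (−0.28) or PBS replicate 2 (−0.03), Rsad2 without PBS replicate 2 (−0.26), and Trim25 without IL-33 replicate 3 (0.066) or PBS replicate 1 (0.04). Over all fits with 1 library left out, Ifih1 ranged from −0.28 to 0.47, Rsad2 from −0.26 to 0.68 and Trim25 from −0.19 to 0.066. With IL-33 replicate 1 alone they turned for Trim25 (0.16), Samhd1 (0.0053) and Ifngr1 (−0.14). Equal totals moved the median of all genes to −1.06, and relative to it Ifi35 lay at 0.72 and Irf9 at 0.85. Of the 10 called members, 0 were called in every alternative run. Some members not called in the main fit gained a call. Besides Eif2ak2, Dhx58, Adar, Parp9 and Parp14, Irgm1 was lower with no mean-variance trend (−0.68) and Samhd1 with quantile normalization (−0.89). Irgm1 (−0.79), Igtp (−1.23) and Samhd1 (−0.63) were called lower without IL-33 replicate 1.

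Whether the replicate numbers pair the libraries is not in the labels. Deviations of same-numbered libraries correlated across genes at 0.0459, 0.242 and −0.164, and not every library correlated best with its own number. These correlations cannot decide the pairing, because deviations from a mean of 3 libraries depend on each other. With the number as a replicate block, 1620 genes were higher and 1298 lower among all genes, and 6 and 4 in the set (median −0.44). Irf2 (limma adjusted p = 0.0674) and Pias3 (limma adjusted p = 0.0965) lost their calls in this fit, no other gene named changed its call, and 1 restraint gene was then lower in place of 3. Depth limits the low genes most: 20 of the 28 tested members averaged under a normalized count of 100.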
